A study of Mus musculus with 12 samples.

Results

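Capn6, Mtus1, Shisa2 and Ccdc134 are 4 of the 55421 genes measured by RNA-seq in B16F10 cells, a mouse melanoma line that forms pigmented tumours. They were chosen by their normalized counts in these same libraries, because these were lower in cells with CRISPR-disrupted Bub1 than in vector control cells in both treatments. Bub1 encodes a kinase of the mitotic spindle checkpoint. The study has 12 libraries, with 3 in each of 4 groups: Bub1KO cells given 8 Gy of radiation, vector control (VC) cells given 8 Gy, untreated Bub1KO cells and untreated VC cells. All groups share the B16F10 background, and its wild-type parent is not among them. How many Bub1KO lines were used, which guide, and how long after irradiation RNA was taken is not given in the sources used here. A property of the Bub1KO line and an effect of Bub1 loss therefore cannot be told apart for any value below.

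The 4 genes have different roles. Capn6 encodes a calpain that lacks the catalytic cysteine of this protease family and is known for stabilising microtubules, mostly in placental and embryonic tissue. Mtus1 encodes the ATIP proteins, which bind microtubules and the angiotensin AT2 receptor and are described in human tumours as candidate tumour suppressors. Shisa2 encodes an endoplasmic reticulum protein of a family known from frog embryos to hold back the maturation of FGF and Wnt receptors. Ccdc134 encodes a protein of the secretory pathway, whose human form has been reported to restrain ERK and JNK signalling and is linked to the chaperone GRP94.

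The libraries held 19380726 to 33087366 reads in genes. A normalized count is a gene's read count divided by its library's size factor, so the limit that a count of 0 allows, 3 reads, is worth 2.13 to 3.87 normalized counts. Whether replicate libraries are from separate cultures is not stated in the labels, so p-values measure only the spread between libraries, which may be technical. Replicate 1 of untreated Bub1KO stood apart from its group, with a chi-square per gene of 53.98 and 50.34 against its partners, where the other pairs within a group gave 5.888 to 19.12. All 7 melanocyte markers averaged at least 10 normalized counts in every group, and their sum was 555550 to 578930 in irradiated Bub1KO libraries, 430620 to 445910 in irradiated VC libraries, 542890 to 552090 in untreated Bub1KO libraries and 386910 to 404330 in untreated VC libraries; its part in the results below was not tested. Bub1 RNA itself was 998 ± 117 normalized counts in irradiated Bub1KO cells and 1484 ± 22.8 in irradiated VC cells, and 1662 ± 149 in untreated Bub1KO cells and 2932 ± 226 in untreated VC cells (SD, n = 3 each). It was therefore 67.3% of VC after irradiation and 56.7% without it (limma adjusted p = 0.00019 and 0.003), and a count over the whole gene does not show whether the protein is lost.

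The label of near silencing held for Capn6 and Mtus1. Shisa2 kept 10.1% of its VC level without irradiation, and Ccdc134 kept 29.4%, so Ccdc134 was reduced and not silenced. All 4 genes had every Bub1KO library below every VC library in both treatments. That separation chose them and is given as a description. Among all 14721 genes tested, 22.6% were separated this way, with Bub1KO lower, after irradiation and 12.9% without it. All 4 passed the filter of at least 10 normalized counts in at least 3 libraries, and Capn6, Mtus1 and Shisa2 did so through VC libraries mainly or alone.

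**Figure D1:**
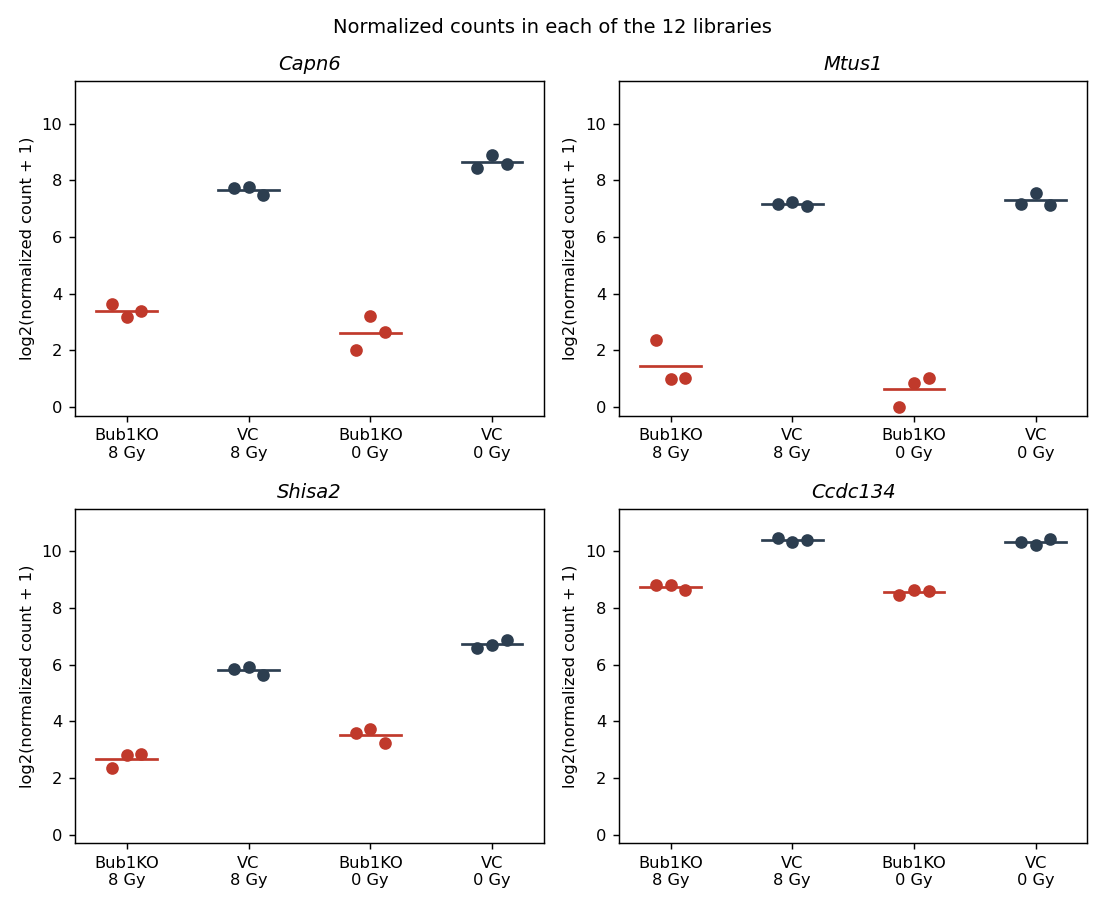
Each panel plots 1 gene, with log2(normalized count + 1) on the y axis and the 4 groups on the x axis; points are libraries and bars are group means of the plotted values (n = 3 each). Bub1KO points lie below VC points in every panel, at the floor for Mtus1 and well above it for Ccdc134.

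Capn6 lies on chromosome X at 143802231 to 143827414 on the minus strand (GRCm38, GENCODE M21). Its normalized counts were 11.4, 8.09 and 9.45 in irradiated Bub1KO libraries, against 209, 219 and 176 in irradiated VC libraries. Without irradiation they were 3.05, 8.23 and 5.27 in Bub1KO libraries, against 347, 479 and 381 in VC libraries. These Bub1KO values rest on 28 reads over 3 irradiated libraries and 18 reads over 3 untreated ones, a low but measurable level, and in bulk RNA fewer expressing cells and less RNA per cell cannot be told apart. Bub1KO cells thus held 4.79% of the VC mean after irradiation and 1.37% without it. The corresponding shares from summed reads had 95% counting intervals of 3.12% to 6.91% and 0.858% to 2.31%, which cover counting error only.

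Mtus1 spans 142.813 kb of chromosome 8, at 40990914 to 41133726 on the minus strand, and has 14 annotated transcripts. It was close to absent from Bub1KO cells, with 4, 1 and 1 reads in the irradiated libraries and 0, 1 and 1 reads in the untreated ones. Its normalized counts were 142, 149 and 136 in irradiated VC libraries and 143, 188 and 140 in untreated VC libraries. The reads came to 6 in irradiated Bub1KO cells and 491 in irradiated VC cells, a share of 1.44% after scaling (95% counting interval 0.528% to 3.17%). Without irradiation they came to 2 in Bub1KO cells and 429 in VC cells, a share of 0.411% (0.0496% to 1.49%). Most of the reads left after irradiation lay in 1 library: without replicate 1 of irradiated Bub1KO, the share of the means was 0.724%, against 1.45% with it. The gene tables give 1 value per gene, so a loss of some transcripts and a loss of all of them were not resolved beyond this sum. The annotation places 3 antisense genes across Mtus1, and none of them reached 1 normalized count in any library. The strand setting of the counting is not given in the sources used here.

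Shisa2 lies on chromosome 14 at 59625308 to 59631660 on the plus strand and overlaps 0 other annotated genes. Its normalized counts were 4.13, 6.07 and 6.30 in irradiated Bub1KO libraries, against 56.9, 59.9 and 48.3 in irradiated VC libraries. Without irradiation they were 11.2, 12.3 and 8.42 in Bub1KO libraries, against 95.3, 103 and 117 in VC libraries. Both genotypes were lower after irradiation, and the share left in Bub1KO cells was close in the 2 treatments, at 9.99% of VC after irradiation and 10.1% without it. The counting intervals, from summed reads, were 5.55% to 16.5% and 7.07% to 14.9%.

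Ccdc134 lies on chromosome 15 at 82127922 to 82142203 on the plus strand, also with 0 overlapping genes. Its normalized counts were 448, 444 and 396 in irradiated Bub1KO libraries, against 1418, 1291 and 1342 in irradiated VC libraries. Without irradiation they were 354, 399 and 385 in Bub1KO libraries, against 1290, 1200 and 1377 in VC libraries. The libraries of each group lay close together, with coefficients of variation of 4.74% to 6.89%. Bub1KO cells held 31.8% of the VC mean after irradiation and 29.4% without it, with counting intervals of 29.7% to 33.7% and 27.6% to 31.5% from summed reads. The genes were ranked here by the signed test score in the authors' deposited table of each treatment, starting from those higher in VC. Ccdc134 had the rank 1 of 30265 genes after irradiation and 3 without it, although its fold change was the smallest of the 4. Genes higher in Bub1KO cells fall at the other end of this ranking. The 4 genes were chosen on this comparison, so the rank is a description. That table gives log2 fold changes of VC over Bub1KO, so a positive value means higher in VC: 1.65 for Ccdc134 after irradiation and 1.76 without it. In the authors' deposited table the same quantity for Mtus1, the largest of the 4, was 6.11 after irradiation and 7.94 without it.

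**Figure D2:**
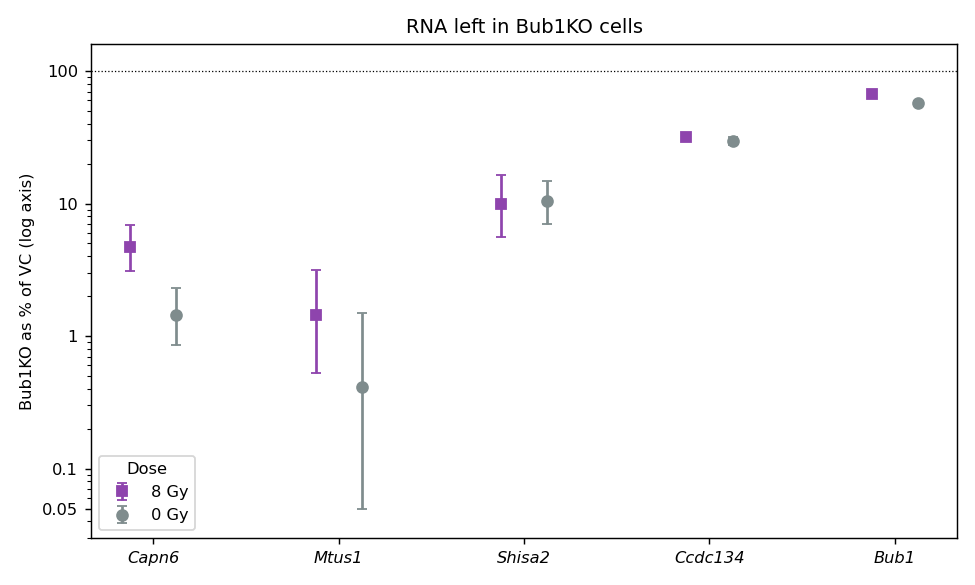
The y axis, on a log scale, gives RNA in Bub1KO cells as a percent of VC from reads summed over 3 libraries per group and scaled by size factors, for the 4 genes and Bub1; squares are 8 Gy, circles are 0 Gy, and bars are 95% counting intervals. The genes spread from under 1% for untreated Mtus1 to about 30% for Ccdc134, while Bub1 stays above 50%.

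Per kilobase of exon, a scale on which genes can be compared, the order of the levels differed between the genotypes. In irradiated Bub1KO cells Ccdc134 was at 80.2 ± 5.39 normalized counts per kb, Shisa2 at 1.5 ± 0.325, Capn6 at 1.24 ± 0.21 and Mtus1 at 0.205 ± 0.177 (SD, n = 3 each). In irradiated VC cells Ccdc134 was at 252 ± 12, Capn6 at 25.8 ± 2.88, Shisa2 at 15.0 ± 1.65 and Mtus1 at 14.1 ± 0.628 (SD, n = 3 each). Shisa2 and Capn6 overlapped between libraries in irradiated Bub1KO cells, and Shisa2 and Mtus1 did so in irradiated VC cells. In untreated Bub1KO cells the order was Ccdc134 at 70.9 ± 4.34 normalized counts per kb, Shisa2 at 2.90 ± 0.548, Capn6 at 0.707 ± 0.333 and Mtus1 at 0.062 ± 0.0549 (SD, n = 3 each). In untreated VC cells it was Ccdc134 at 241 ± 16.6, Capn6 at 51.6 ± 8.76, Shisa2 at 28.7 ± 3.02 and Mtus1 at 15.6 ± 2.70 (SD, n = 3 each), and no neighbours in the untreated orders overlapped. Capn6 thus stood above Shisa2 in VC cells and below it in the untreated Bub1KO cells. By this level Ccdc134 exceeded 69.2% of the tested genes in irradiated VC cells, while Mtus1 exceeded 16.7% of them.

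Few expressed genes were as low in Bub1KO cells. Of the genes with a VC mean of at least 50 normalized counts, 5 of 11275 were at or under 10% of VC in Bub1KO cells after irradiation (0.0443%) and 5 of 10905 without it (0.0459%). In both treatments together 4 genes were that low (0.0372% of 10765), and they were Mtus1, Capn6, the connexin gene Gja1 and the homeobox gene Hoxd13. Gja1 averaged 5.86 normalized counts in irradiated Bub1KO cells and 161 in irradiated VC cells, and 1.38 in untreated Bub1KO cells and 83.5 in untreated VC cells. Hoxd13 averaged 3.45 in irradiated Bub1KO cells and 153 in irradiated VC cells, and 6.11 in untreated Bub1KO cells and 353 in untreated VC cells. Counted from the lowest share of VC, Mtus1 was rank 1 in both treatments, Capn6 was rank 4 after irradiation and 2 without it, and Shisa2 was rank 5 after irradiation and 6 without it. Shisa2 lay on the edge of the 10% limit, just inside it after irradiation and just outside it without. Ccdc134 was rank 25 after irradiation and 13 without it.

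**Figure D3:**
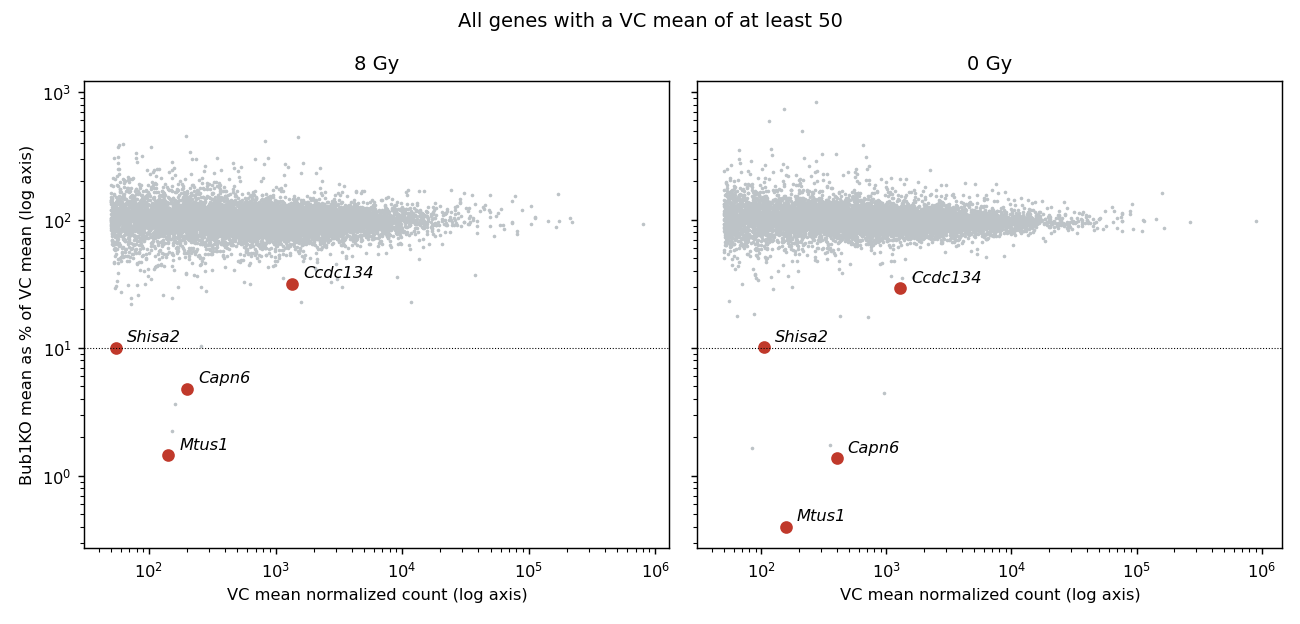
Every gene with a VC mean of at least 50 normalized counts is a grey point, with the VC mean on the x axis and the Bub1KO mean as a percent of it on the y axis (both log axes), at 8 Gy on the left and 0 Gy on the right. The 4 genes are in red and the dotted line marks 10%: Mtus1 and Capn6 lie below it in both panels, Shisa2 on it, and Ccdc134 at the lower edge of the main cloud.

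The genes were chosen on Bub1KO against VC within each treatment, and the change with radiation was tested on the same libraries. It was fitted with limma on log2(normalized count + 1) over all 14721 genes and 12 libraries, with Benjamini-Hochberg adjustment and a threshold of 0.05. In VC cells radiation lowered Capn6 and Shisa2, and neither Mtus1 nor Ccdc134 passed the test. That is 2 of the 4 genes, where 53.4% of all genes passed and 25.8% passed with a fall. Capn6 fell by 0.99 on the log2 scale (SE 0.258, adjusted p = 0.00534), and its 3 irradiated VC libraries all lay below its 3 untreated ones, as they did for 31.8% of all genes. Shisa2 fell by 0.92 (SE 0.221, adjusted p = 0.00312), again with no overlap of the groups. The difference was -0.13 for Mtus1 (95% interval -0.92 to 0.66, adjusted p = 0.788) and 0.07 for Ccdc134 (-0.11 to 0.25, adjusted p = 0.521), so these intervals leave changes of up to 0.92 for Mtus1 and 0.25 for Ccdc134.

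In Bub1KO cells Shisa2 passed as lower after irradiation, and Capn6 passed in the other direction, both from few reads. These are 2 of the 3 genes other than Mtus1, where 49.4% of all genes passed, 25.4% with a rise and 23.9% with a fall. Shisa2 fell by 0.84 (SE 0.221, adjusted p = 0.00605), and its irradiated libraries all lay below its untreated ones, as they did for 25.8% of all genes. Its call ended with DESeq2 on the recovered reads (adjusted p = 0.0804) and with only the 6 Bub1KO libraries in the fit (0.0737). Capn6 rose by 0.78 (SE 0.258, adjusted p = 0.0226), but its groups overlapped, with a lowest irradiated value of 8.09 and a highest untreated value of 8.23 normalized counts. That call ended with edgeR (adjusted p = 0.143), with DESeq2 (0.164) and with the 6 Bub1KO libraries (0.148). It also ended without replicate 1 of untreated Bub1KO (0.47, adjusted p = 0.0794) or replicate 1 of irradiated Bub1KO (0.66, adjusted p = 0.0842). Ccdc134 was 0.18 higher (95% interval -0.01 to 0.36, adjusted p = 0.09999 by limma) and did not pass. Mtus1 is given neither a fold nor a test here, because 5 of its 6 Bub1KO libraries held at most 1 read and it passed the filter through VC alone. Capn6 and Shisa2 also passed the filter mainly through VC libraries. In Bub1KO cells Capn6 held 28 reads over the irradiated libraries and 18 over the untreated ones, and Shisa2 held 16 and 34. The Capn6 reads are too few to show whether it rose. The Shisa2 reads are about as few, so its fall in Bub1KO cells is not firmly shown.

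The interaction asks whether radiation acted differently in Bub1KO and VC cells. It is also the difference of the 2 comparisons that chose the genes, so it is not independent of that choice. Mtus1 is left out for the reason above. With limma 0 of the other 3 genes passed, where 0.55% of all genes did (0.136% with a positive and 0.414% with a negative value), and 1 of the 3, Capn6, had an unadjusted p under 0.05. Capn6 had the largest value, 1.76 on the log2 scale (SE 0.364, adjusted p = 0.0507), since its VC libraries were lower after irradiation and its Bub1KO libraries were not. This value rests on the same 28 and 18 Bub1KO reads and is not read as a difference in response. It passed with DESeq2 (adjusted p = 0.0256), with a pseudocount of 5 (0.0257), without replicate 1 of untreated Bub1KO (0.00473) and without replicate 2 of that group (0.0107), and it did not pass with edgeR (0.104). Its adjusted p ranged from 0.00473 to 0.15 over all 19 alternatives. The interaction was 0.08 for Shisa2 (95% interval -0.59 to 0.75, adjusted p = 0.95) and 0.11 for Ccdc134 (-0.15 to 0.37, adjusted p = 0.777). Among 8 leukocyte and macrophage markers, the summed normalized counts were 271 to 288 in irradiated Bub1KO libraries, 172 to 196 in irradiated VC libraries, 28.8 to 31.5 in untreated Bub1KO libraries and 29.0 to 32.3 in untreated VC libraries. In that list 2 markers averaged at least 10 in irradiated cells of each genotype, and the defining markers Adgre1 and Cd3e were at 0 in all 12 libraries. The part of this difference in the radiation results was not tested. The summed fibroblast and endothelial markers were 239 to 271 in irradiated Bub1KO libraries, 348 to 361 in irradiated VC libraries, 178 to 205 in untreated Bub1KO libraries and 186 to 245 in untreated VC libraries. Those of keratinocytes and epithelia were 122 to 133 in irradiated Bub1KO libraries, 77.2 to 102 in irradiated VC libraries, 74.8 to 96.6 in untreated Bub1KO libraries and 57.2 to 78.7 in untreated VC libraries. Of 9 fibroblast and endothelial markers, 3 averaged at least 10 in irradiated Bub1KO cells, 4 in irradiated VC cells and 2 in untreated cells of each genotype, and Cdh5 was at 0 in all groups but irradiated VC. Of 7 keratinocyte and epithelial markers 1 did so in every group, and Krt18 was at 0 in all of them. The genotypes did not overlap after irradiation for either list, and the part of this in the Bub1KO and VC comparisons was not tested.

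**Figure D4:**
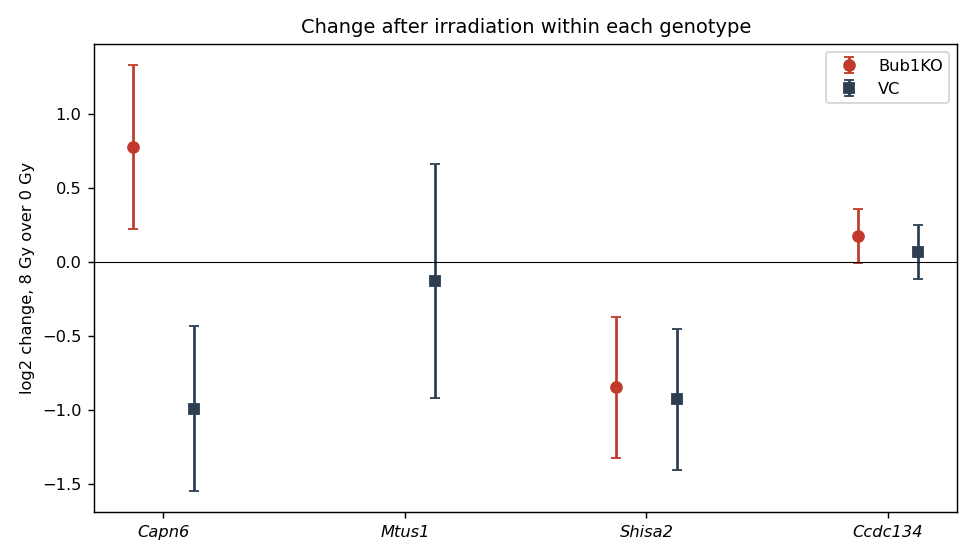
The y axis gives the log2 change of 8 Gy over 0 Gy from the limma fit of 12 libraries, with 95% intervals, for Bub1KO (circles) and VC (squares); Mtus1 in Bub1KO is left out because it held at most 1 read in 5 of 6 libraries. Shisa2 lay below 0 in both genotypes, in Bub1KO from few reads. Capn6 lay below 0 in VC and above 0 in Bub1KO, and the Ccdc134 intervals include 0.

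The 4 genes lie on 4 chromosomes, so each was set against its own neighbours, which the choice of the genes did not use. The 3 nearest tested genes on each side, 24 in all, kept most of their RNA in Bub1KO cells. They lay 4.434 to 1774 kb from their gene, with genes under the filter between in some cases. The stretch next to each of the 4 genes was therefore only partly covered. After irradiation 6 of 24 neighbours passed the test of Bub1KO against VC, 2 higher and 4 lower, where 30.7% of all genes passed (14.3% higher and 16.4% lower). Their log2 differences ranged from -0.68 to 0.42, with a median of -0.03 against -0.01 for all genes tested, and the lowest neighbour still held 62.9% of VC. The count of 6 was 2 without replicate 2 of irradiated Bub1KO or replicate 2 of irradiated VC, and 3 without replicate 1 of irradiated VC. It was 4 without replicate 1 of irradiated Bub1KO or replicate 3 of irradiated VC. Without replicate 3 of irradiated Bub1KO it grew, to 2 higher and 5 lower. It was 3 without the filter and 1 with all 12 libraries in the fit. Of all 14721 genes, 3045 passed without replicate 2 of irradiated Bub1KO and 3360 without replicate 2 of irradiated VC. Without replicate 3 of irradiated Bub1KO 4744 passed, against 4512 in the main fit. Without irradiation 0 of 24 passed with limma, where 4.01% of all genes passed (2.31% higher and 1.71% lower). In that comparison 3 had an unadjusted p under 0.05, edgeR called 0 and DESeq2 called 1. Without replicate 1 of untreated Bub1KO limma called 1 of the 24, where it called 2736 of all 14721 genes. With all 12 libraries in the fit it called 1 higher and 1 lower, where it called 1769 of all genes. The lowest untreated neighbour held 73.4% of VC, and the median log2 difference was -0.02, against -0.01 for all genes tested.

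The gene nearest to Capn6 is Pak3, a p21-activated kinase gene that ends 4.434 kb away on the opposite strand. Pak3 was higher in irradiated Bub1KO cells, at 459 ± 31.3 normalized counts, against 349 ± 21.7 in irradiated VC cells (SD, n = 3 each; log2 difference 0.39, SE 0.0878, limma adjusted p = 0.00458). It held 83.9 ± 12.3 in untreated Bub1KO cells and 52.4 ± 9.42 in untreated VC cells, which did not pass (adjusted p = 0.105). Pak3 thus lay on the other side of VC from Capn6 in both treatments, although it passed in irradiated cells alone and ended there with 12 libraries in the fit (adjusted p = 0.0883), where the untreated difference passed (0.00874). On the other side of Capn6 the nearest tested gene is Alg13, an N-glycosylation gene 490.39 kb away. Its log2 differences were -0.22 after irradiation and -0.17 without it, and neither passed. Farther from Capn6, Rtl9 was lower in irradiated Bub1KO cells by 0.68 (limma adjusted p = 0.00687) and Ammecr1 by 0.30 (0.0477); the Ammecr1 call ended without irradiated Bub1KO replicate 2 or any 1 of the irradiated VC replicates (adjusted p of 0.0768 to 0.204).

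The nearest tested genes to Mtus1 are Vps37a, a gene of the ESCRT sorting machinery, and Fgl1, a fibrinogen-like gene. Vps37a is 439.78 kb away, with 14 genes under the filter starting between it and Mtus1, and Fgl1 is 57.707 kb away. Vps37a averaged 1086 ± 23.9 normalized counts in irradiated Bub1KO cells and 948 ± 27.6 in irradiated VC cells (SD, n = 3 each; log2 difference 0.20, limma adjusted p = 0.0314), a call that ended when any 1 of irradiated Bub1KO replicates 1 and 2 or VC replicates 1 and 2 was left out (adjusted p of 0.0653 to 0.127). Fgl1 did not pass in either treatment. Near Shisa2, at 27.348 kb, Cdadc1 was at log2 differences of -0.06 after irradiation and -0.14 without it and did not pass. Gm49336 lies 573.62 kb away on the other side of Shisa2. It fell by 0.26 in irradiated Bub1KO cells (limma adjusted p = 0.0248). That call ended without irradiated Bub1KO replicate 2, VC replicate 2 or VC replicate 3 (adjusted p of 0.0704 to 0.124). Beside Ccdc134, Srebf2, the sterol regulator gene that starts 4.977 kb from it, was at -0.20 after irradiation (limma adjusted p = 0.0604) and 0.00 without it. After irradiation it passed as lower with DESeq2 (adjusted p = 0.0465) and, with limma, without replicate 3 of irradiated VC (-0.27, adjusted p = 0.0155). Snu13, which encodes a small ribonucleoprotein component, fell by 0.16 in irradiated Bub1KO cells (limma adjusted p = 0.0462), a call lost on leaving out Bub1KO replicate 1 or 2 or any VC replicate of the irradiated cells (adjusted p of 0.0996 to 0.127).

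**Figure D5:**
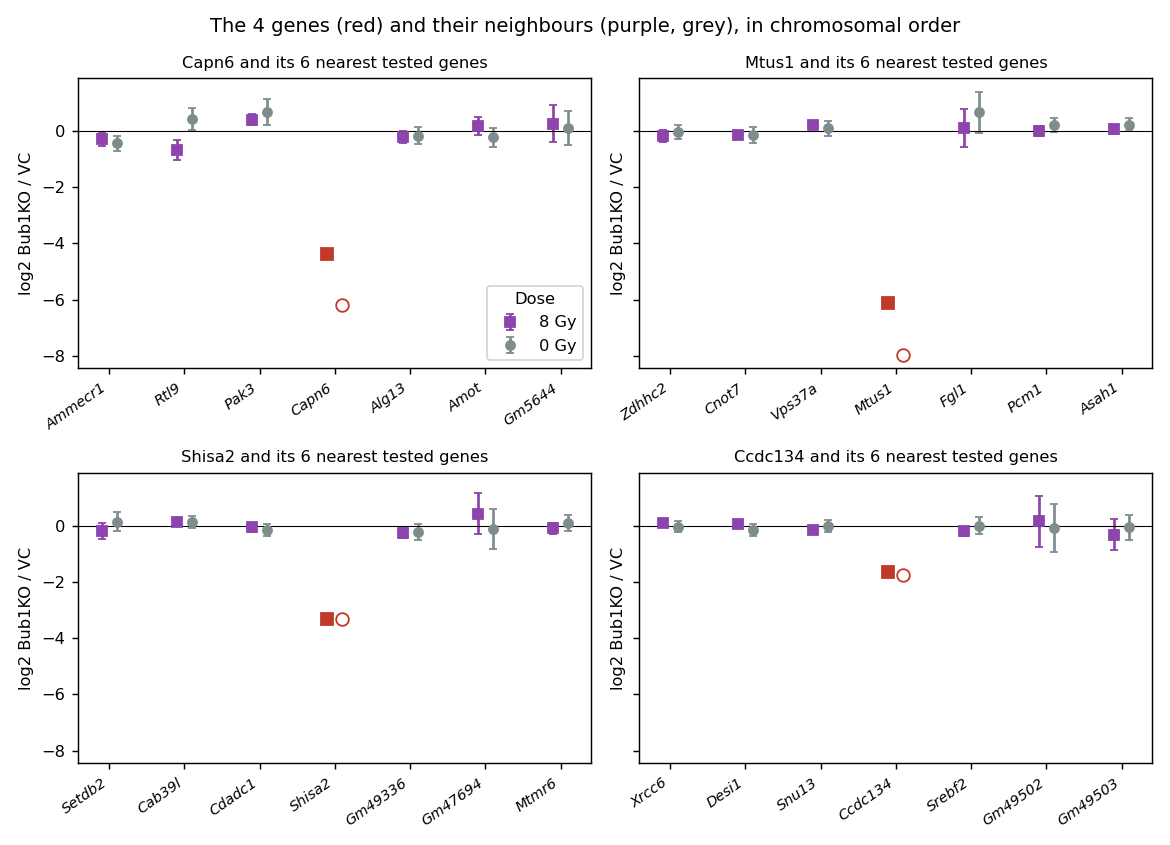
The y axis gives the log2 difference of Bub1KO over VC for each gene (red, from group means) and its 3 nearest tested genes on each side in chromosomal order (limma fit with 95% intervals); squares are 8 Gy and circles are 0 Gy. The red points lie between -8 and -1.6, whereas all neighbours lie between -0.68 and 0.67.

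The stretches just upstream of the start sites were read from RefSeq (GRCm38.p6), which held an entry for 3 of the 4 genes. They are shown as the regulatory sequence nearest to the start of each gene. Each gives the 250 bases before the start site, with CG dinucleotides, the sites of DNA methylation, in capitals. Capn6 is chrX:143827413-143827662 on the minus strand, Shisa2 is chr14:59625031-59625280 on the plus strand, and Ccdc134 is chr15:82127672-82127921 on the plus strand, the entry of 2 that lies nearest to the GENCODE start.
Capn6: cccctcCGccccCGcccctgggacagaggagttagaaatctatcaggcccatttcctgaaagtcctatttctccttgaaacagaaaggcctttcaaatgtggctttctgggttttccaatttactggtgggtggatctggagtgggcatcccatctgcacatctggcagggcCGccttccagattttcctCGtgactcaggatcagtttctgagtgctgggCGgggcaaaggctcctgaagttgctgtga
Shisa2: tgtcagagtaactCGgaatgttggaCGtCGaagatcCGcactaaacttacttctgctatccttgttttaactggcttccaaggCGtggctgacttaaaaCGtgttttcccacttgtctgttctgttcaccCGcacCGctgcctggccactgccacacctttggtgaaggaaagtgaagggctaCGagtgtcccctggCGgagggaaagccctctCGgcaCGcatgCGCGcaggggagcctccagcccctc
Ccdc134: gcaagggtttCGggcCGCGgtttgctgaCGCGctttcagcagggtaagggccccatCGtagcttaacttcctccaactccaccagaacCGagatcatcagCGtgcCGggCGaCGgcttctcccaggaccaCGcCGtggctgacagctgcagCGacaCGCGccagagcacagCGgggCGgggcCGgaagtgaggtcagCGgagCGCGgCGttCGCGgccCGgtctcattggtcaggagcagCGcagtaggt
The 3 sequences differ in their CG content. Capn6 held 5 CG dinucleotides, Shisa2 14 and Ccdc134 27, against a median of 6 (quartiles 2 and 16) over 32851 promoter entries of the same length. Ccdc134 thus had more than 91.4% of the promoters, and Capn6 lay near their middle. No methylation was measured in these libraries. Of 6 motifs searched on both strands, the GC box GGGCGG stood in Capn6 at 245, 239 and 32 bases before the start and in Ccdc134 at 77 bases, and 32.7% of all promoters held it. The CCAAT box stood in Capn6 at 135 bases and in Ccdc134 at 25 bases (33.8% of promoters), and the AP-1 motif TGACTCA in Capn6 at 58 bases (4.46%). The TATA box TATAAA (12.4% of promoters), the E-box CACGTG (6.02%) and the M-box core CATGTG (12.3%) were in none of the 3 windows. Shisa2 held none of the 6, and 0 motifs were shared by all 3 sequences.

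Across the 12 libraries the genes whose log2 values ran most like each of the 4 were partly the other members. The measure was Pearson's r, and since the libraries fall into Bub1KO and VC sets it mostly reflects the gap between the genotypes, which chose the members. Mtus1 was nearest to Capn6 (0.989), Ccdc134 to Mtus1 (0.991), Hoxd13 to Shisa2 (0.985) and the kinase gene Syk to Ccdc134 (0.993). Syk had a mean of 0 in Bub1KO cells of both treatments, against 32.1 normalized counts in irradiated VC cells and 21.9 in untreated VC cells, and a count of 0 allows up to 3 reads in a library. Prex1, an exchange factor gene among the 5 most like Mtus1, averaged 1.04 in irradiated Bub1KO cells and 32.7 in irradiated VC cells, and 0 in untreated Bub1KO cells and 28.3 in untreated VC cells. The metalloprotease gene Adam12, among the 5 most like Capn6, averaged 193 in irradiated Bub1KO cells and 472 in irradiated VC cells, and 125 in untreated Bub1KO cells and 716 in untreated VC cells. The others in these sets were Armcx4, Syt7, Npr3, Med22, Helz, Pcdh17 and Ccn2.

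Capn6 belongs to the calpains and Mtus1 to the microtubule-associated proteins. Of the calpain family without Capn6, 10 genes were tested, and in irradiated Bub1KO cells 5 were higher and 2 lower than in VC, where 14.3% of all genes were higher and 16.4% lower. Their median log2 difference was 0.19, against -0.01 for all genes. The higher count was 2 without replicate 2 of irradiated Bub1KO, 3 without replicate 2 or replicate 3 of irradiated VC, and 4 without any other irradiated library. Capn5, a calpain with a working catalytic site, averaged 217 ± 11.4 normalized counts in irradiated Bub1KO cells and 112 ± 11.9 in irradiated VC cells (SD, n = 3 each; log2 difference 0.95, limma adjusted p = 8.4e-05). Cast, the calpain inhibitor, was 0.25 higher and Capn10 and Capn15 were 0.44 and 0.43 lower in those cells. Without irradiation limma called 0 of the 10, 2 had an unadjusted p under 0.05, edgeR and DESeq2 each called 0, and without replicate 1 of untreated Bub1KO limma called 3 higher. That fit without replicate 1 called 1499 of all 14721 genes higher and 1237 lower. Of 32 other microtubule-associated proteins, 7 were higher and 6 lower in irradiated Bub1KO cells, and 1 was higher in untreated ones, with median log2 differences of -0.02 and -0.01. Of all genes 14.3% were higher and 16.4% lower after irradiation, and 2.31% higher and 1.71% lower without it. The irradiated counts were 4 higher and 3 lower without replicate 2 of irradiated Bub1KO, and 5 higher and 4 lower without replicate 1 of that group. They were 5 higher and 8 lower without replicate 3 of irradiated VC. In these fits, in the same order, 1383, 1655 and 1710 of all 14721 genes were higher and 1662, 1858 and 2091 lower. Without replicate 1 of untreated Bub1KO the untreated counts were 4 higher and 7 lower, where 1499 and 1237 of all genes were. Map7d2, a microtubule-binding partner of kinesin, passed in both treatments, at 431 ± 16.5 normalized counts in irradiated Bub1KO cells and 151 ± 34.6 in irradiated VC cells, and 400 ± 55.3 in untreated Bub1KO cells and 205 ± 3.47 in untreated VC cells (SD, n = 3 each; limma adjusted p = 6.1e-06 and 0.00486). Map1s fell by 0.99, while Nav1 and the tubulin deacetylase gene Hdac6 were 0.36 and 0.32 higher in irradiated Bub1KO cells.

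For Shisa2, 2 other Shisa genes were tested and 0 passed with limma, edgeR or DESeq2 in either treatment, with an unadjusted p under 0.05 for 0 after irradiation and 1 without it. Of 14 FGF and Wnt receptor genes, 1 was higher and 5 were lower in irradiated Bub1KO cells, and 1 was lower in untreated ones, with median log2 differences of -0.23 and -0.20. Of all genes 16.4% were lower after irradiation and 1.71% without it. With 1 library left out, 4 to 6 receptor genes were lower after irradiation, and the higher count was 1 without replicate 3 of irradiated Bub1KO or replicate 2 of irradiated VC and 0 without any other irradiated library. Fzd6, a Frizzled receptor, averaged 246 ± 28.4 normalized counts in irradiated Bub1KO cells and 382 ± 16.8 in irradiated VC cells (SD, n = 3 each; limma adjusted p = 0.00049). It averaged 201 ± 41.3 in untreated Bub1KO cells and 333 ± 37.8 in untreated VC cells (adjusted p = 0.0436 by limma), and that untreated call was lost on leaving out Bub1KO replicate 2 or 3 or any VC replicate (0.0877 to 0.194). Fzd9, Fzd2 and Fzd3 fell by 1.09, 0.56 and 0.45 in irradiated Bub1KO cells. Without replicate 1 of untreated Bub1KO 5 of the 14 were lower in untreated cells, where 1237 of all 14721 genes were. Of 5 Wnt target and feedback genes, Tcf7 alone passed, in irradiated cells, where 14.3% of all genes were higher and 16.4% lower. Tcf7 was 0.54 higher in irradiated Bub1KO cells (limma adjusted p = 0.0168), and this ended without replicate 1 of irradiated Bub1KO (0.0792). In untreated cells limma called 0 of these 5 and 1 had an unadjusted p under 0.05, edgeR called 0 and DESeq2 called 1.

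Genes that FGF and ERK signalling switch on were mostly lower in irradiated Bub1KO cells, and none of them rose past the threshold in untreated ones. This list, like the others here, was chosen with earlier results of these data known, so its counts are a description. Of 14 tested, 10 were lower and 1 higher in irradiated Bub1KO cells, and 6 were lower in untreated ones, with median log2 differences of -0.47 and -0.72 against -0.01 for all genes in both treatments. Of all genes 16.4% were lower after irradiation and 1.71% without it. With 1 library left out the irradiated count of lower genes was 8 to 11. The untreated count was 5 to 9 when 1 library was left out, the highest without replicate 1 of untreated Bub1KO. In that fit 1237 of all 14721 genes were lower. Etv5, an ETS factor gene, averaged 358 ± 21.4 normalized counts in irradiated Bub1KO cells and 743 ± 41.1 in irradiated VC cells, and 76.6 ± 25 in untreated Bub1KO cells and 429 ± 26.0 in untreated VC cells (SD, n = 3 each; limma adjusted p = 2e-06 and 0.00048). Its relative Etv4 fell by 1.63 after irradiation and fell by 2.39 without it. The ERK phosphatase gene Dusp6 fell by 0.58 after irradiation and fell by 1.08 without it. The feedback inhibitor gene Spry2 fell by 0.76 after irradiation and fell by 0.74 without it, and the untreated Spry2 call ended without Bub1KO replicate 2, VC replicate 1 or VC replicate 2 (limma adjusted p of 0.0545 to 0.082). Whether these differences depend on Shisa2 or Ccdc134 was not tested.

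Of 11 genes of the ERK and JNK cascades, kinases and the JNK scaffolds Mapk8ip1 and Mapk8ip3, 3 were higher and 2 lower in irradiated Bub1KO cells, with a median log2 difference of 0.09 against -0.01 for all genes (14.3% of them higher and 16.4% lower). Mapk8ip3 was among the higher genes and Mapk8ip1 among the lower ones. Without replicate 1 or replicate 2 of irradiated VC the lower count was 1. Mapk3, which encodes ERK1, was 0.47 higher, Map2k1 and Mapk8ip3 were 0.24 and 0.31 higher, and Map2k2 was 0.70 lower, all after irradiation. Without irradiation limma, edgeR and DESeq2 each called 0 of the 11, and 0 had an unadjusted p under 0.05. Without replicate 1 of untreated Bub1KO limma called 4 higher and 1 lower, where it called 1499 of all 14721 genes higher and 1237 lower. Of 12 genes in a list of GRP94, its cofactors and its clients that also held Tada2a, 5 were higher and 3 lower in irradiated Bub1KO cells. There 14.3% of all genes were higher and 16.4% lower. In untreated cells 1 was higher and 0 lower, where 2.31% of all genes were higher and 1.71% lower. The median log2 differences of the list were 0.03 after irradiation and 0.05 without it. Without replicate 2 of irradiated Bub1KO the irradiated counts of this list were 3 higher and 2 lower. Hsp90b1, which encodes GRP94, was 0.35 higher (limma adjusted p = 0.00039) and its cofactor gene Cnpy4 0.33 higher, while the integrin gene Itga6 fell by 0.59. Itgb3, another integrin gene, averaged 1952 ± 63.0 normalized counts in irradiated Bub1KO cells and 1103 ± 71.0 in irradiated VC cells, and 1129 ± 139 in untreated Bub1KO cells and 779 ± 75 in untreated VC cells (SD, n = 3 each; limma adjusted p = 2.8e-06 and 0.0429). The untreated Itgb3 call was lost on leaving out Bub1KO replicate 2 or 3 or any VC replicate (0.0692 to 0.205). Without replicate 1 of untreated Bub1KO the GRP94 list had 4 higher and 3 lower genes in untreated cells, where 1499 and 1237 of all genes were.

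The counts of these lists after irradiation depended on which genes and libraries entered the fit. Without the filter on low genes they were 2 higher and 2 lower for calpains, 3 and 0 for microtubule-associated proteins, 0 and 3 for FGF and Wnt receptors, 0 and 0 for Wnt targets, 1 and 4 for FGF and ERK output, 2 and 0 for the ERK and JNK cascades, and 3 and 1 for GRP94 and its partners. With all 12 libraries in the fit they were 1 and 0 for calpains, 5 and 3 for microtubule-associated proteins, 0 and 4 for receptors, 1 and 7 for FGF and ERK output, 2 and 0 for the cascades, and 3 and 2 for GRP94 and its partners. Of all genes 1109 of 30265 were higher and 953 lower after irradiation without the filter. With all 12 libraries in the fit 1085 of 14721 were higher and 1020 lower. The lower side stayed the longer one for receptors and for FGF and ERK output under both settings.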

How the data were processed

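RNA of 12 B16F10 libraries was made with a stranded total RNA kit after ribosomal RNA removal, per the labels. Per the submitters' processing notes, the genome was GRCm38.p6 (mm10) and the tools were Trim Galore, cutadapt, STAR, SAMtools and HTSeq. For versions, annotation release and strand setting, nothing is given in the sources used here. The authors deposited 2 tables (irradiated and untreated). The sample columns hold a signal that the authors made by dividing each read count by 1 size factor per library (0.775 to 1.41, per the file headers and values), and both tables share 1 normalization. Per the file headers the authors also give log2 fold changes of VC over Bub1KO, test scores (fold change over its error) and p-values.

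Dividing by each column's step returned whole reads for 100.0% of values (tolerance 0.01 of a read). The test was limma 3.58.1 (R 4.3.3) on log2(normalized count + 1) for the 14721 genes with at least 10 in at least 3 libraries, a scale that understates changes of low genes. The genotypes were compared on the 6 libraries of a treatment, radiation and the interaction on 12. It was tested on simulated data. On whole reads edgeR 4.0.16 called 4515 genes for Bub1KO against VC after irradiation and 642 without it, and DESeq2 1.42.0 called 4030 and 852 (limma 4512 and 591). For irradiated against untreated Bub1KO cells edgeR called 7339 and DESeq2 7137 (limma 7269), for VC cells 7990 and 7765 (limma 7861).

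Positions came from GENCODE M21 (55154 of 55421 identifiers matched) and promoters from RefSeq (3 of 4 genes). The 4 genes and the lists were chosen with earlier results of these data known. Genes named are the 4, Bub1, the nearest tested gene on each side and called ones among the nearest 3, the 5 genes with the highest r to each, and at most 4 called genes per list. Gja1 was named after its values were seen. No labelled batch exists.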

Additional observations from a re-analysis of the deposited data

Results flagged for a closer look

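Rtl9, a neighbour of Capn6, lay on opposite sides of VC in the 2 treatments. It averaged 64.8 ± 12.4 normalized counts in irradiated Bub1KO cells and 103 ± 8.03 in irradiated VC cells, and 67.9 ± 3.35 in untreated Bub1KO cells and 50.5 ± 6.63 in untreated VC cells (SD, n = 3 each). Every Bub1KO library was lower than every VC library after irradiation and higher without it. The interaction was -1.10 on the log2 scale and did not pass with limma (adjusted p = 0.0507).

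Tcf7, of the Wnt target list, changed after irradiation in opposite directions in every library of the 2 genotypes. Its interaction was 0.65 and did not pass with limma (adjusted p = 0.231).

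Etv5, of the FGF and ERK list, had a smaller deficit in Bub1KO cells after irradiation than without it. The interaction was 1.46 on the log2 scale and passed with limma (SE 0.235, adjusted p = 0.012).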

How the results depend on the processing

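Leaving out 1 library moved the number of genes past the threshold to between 3045 and 4744 for Bub1KO against VC after irradiation (main value 4512), 172 and 2736 without irradiation (591), 33 and 1447 for the interaction (81), 6141 and 7567 for radiation in Bub1KO (7269) and 6733 and 9025 for radiation in VC (7861). The 2736 and 1447 come without replicate 1 of untreated Bub1KO. Without the filter 2062 genes passed after irradiation and 329 without it, and with all 12 libraries in the fit 2105 and 1769. DESeq2 gave 269 for the interaction. The replicate numbers did not pair the libraries: over 18 same-numbered pairs the correlation of deviations was -0.193 to 0.196, with 1 over 0.1. With replicate as a block the counts were 4161, 312, 47, 6967 and 7582 in the order above. Genes at or under 10% of VC in both treatments numbered 7 with a VC mean of at least 20, and 4 to 5 with 1 library left out.

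Values that changed sign had not passed. The Shisa2 interaction was -0.0056 with edgeR, -0.039 with DESeq2 and -0.066 to 0.242 with 1 library left out. Mtus1 in irradiated against untreated VC cells was -0.202 to 0.0114 with 1 library left out. For Bub1KO against VC, Fgl1 after irradiation was -0.188 to 0.392 with 1 library left out, and without irradiation Vps37a was -0.0192 to 0.148, Snu13 -0.080 to 0.0451 and Srebf2 -0.0858 to 0.176, with Srebf2 at -0.0148 under TMM scaling. Of 524 comparisons of single genes under other settings, 478 kept direction and side of the threshold, 36 lost a call, 7 gained one and 3 changed sign. Of 468 with 1 library left out these were 414, 32, 7 and 15. The causes were not tested. The low reads of Mtus1, Capn6 and Shisa2 in Bub1KO cells limit what can be said of their radiation response there.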
